A study of Homo sapiens with 8 samples.

Results

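The genes of glycolysis, of the fate of pyruvate and of the pentose phosphate pathway were examined by RNA-seq in 2 clear cell renal cell carcinoma (ccRCC) cell lines. They were a named list of 38 genes, out of 22678 genes with a current symbol. The level of a gene was its FPKM, a read density corrected for transcript length and for the number of mapped reads, summed over its NM and NR entries of RefSeq in each library. The lines, A498 and 786-O, both came from kidney tumors. In each line, 2 libraries were from cells with a non-target control siRNA (NTC), 1 from cells with siRNA #1 and 1 from cells with siRNA #2 against SLINKY, a long intergenic noncoding RNA (knockdown, KD). Control and knockdown cells alike were transfected with 50 nM siRNA for 16 h, per the labels, which call all siRNAs pools, whereas the methods of the study describe 2 individual siRNAs to the first exon and place RNA isolation at a later time after transfection. A498 was grown in DMEM and 786-O in RPMI-1640, both with serum, so that medium and cell line cannot be told apart in any comparison of the lines. Nothing places replicates in separate cultures, so p-values measure only the spread between these libraries. In bulk RNA, fewer cells with a transcript and less of it per cell cannot be told apart.

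Glycolysis splits glucose into pyruvate, and most of its steps can be run by more than one isozyme, each from its own gene and with its own tissue range. Pyruvate is then reduced to lactate and exported, or carried into the mitochondrion and oxidised by the pyruvate dehydrogenase complex, which the PDK kinases switch off. The pentose phosphate pathway branches off at glucose 6-phosphate and yields NADPH and ribose. Loss of the VHL tumor suppressor, the hallmark of ccRCC, leaves HIF transcription factors active, and several glycolytic genes are textbook HIF targets.

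Depth was estimated at 25026761 to 64416129 mapped reads a library, from only 7 to 12 single-exon genes with about 1 read each. The 38 genes made up 2.18% to 2.33% of all RefSeq FPKM. SLINKY was at 14.6 and 16.1 FPKM in A498 NTC against 1.64 and 3.01 with siRNA #1 and #2, and at 1.45 and 1.39 in 786-O NTC against 0.0569 and 0.594 (two-sided exact permutation test within lines, p = 0.0556, the smallest that 36 arrangements allow). Of 13 markers of tubular epithelium and ccRCC, 11 reached a mean of 1 FPKM in A498 and 10 in 786-O, with sums of 3150 to 3313 and 3548 to 3805. CA9, a HIF target among them, was at 0.293 to 0.559 FPKM in A498 and at most 0.0229 in 786-O, and NDUFA4L2 had no value. No mean of 4 endothelial markers reached 1 FPKM in either line (sums of 0.0237 to 0.0448 in A498 and 0.023 to 0.0549 in 786-O), nor did any of 5 fibroblast or pericyte markers (0.828 to 1.05 and 0.942 to 1.3, with COL3A1 listed at 0). Of 5 leukocyte markers, PTPRC and CD3E were listed at 0 in all 8 libraries, and CD68 was at 138 to 151 FPKM in A498 and 1.7 to 5.2 in 786-O. The part of CD68 in the differences between the lines was not tested.

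The first sequences shown are the mutually exclusive coding exons of PKM, pyruvate kinase of most tissues, because the choice between its forms is made within this 1 gene and not between genes. Exon 9 makes the M1 form of adult muscle and brain, and exon 10 the M2 form of proliferating cells and tumors. Both lie on the minus strand (GRCh37), exon 9 at chr15:72495363-72495529 and exon 10 at chr15:72494795-72494961, of equal length and with 401 bases between them. Capitals mark the 62 positions at which they differ.

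PKM exon 9: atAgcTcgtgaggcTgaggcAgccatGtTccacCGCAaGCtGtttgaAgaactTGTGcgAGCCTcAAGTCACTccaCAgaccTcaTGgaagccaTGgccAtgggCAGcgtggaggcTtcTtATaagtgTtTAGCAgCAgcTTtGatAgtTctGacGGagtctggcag
PKM exon 10: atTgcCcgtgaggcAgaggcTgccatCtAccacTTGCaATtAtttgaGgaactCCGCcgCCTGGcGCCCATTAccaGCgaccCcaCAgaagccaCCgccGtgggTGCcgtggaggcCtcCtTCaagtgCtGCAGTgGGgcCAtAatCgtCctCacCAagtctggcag

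The exons were identical at 62.9% of their positions, and the longest run they shared was 10 bases. No window of 36 bases, the read length, was common to both.

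The second set is the promoters of ALDOC, ENO1 and ENO2, genes with some of the largest differences between the lines. They are the 250 bases before the start from RefSeq (GRCh38.p14), 5′ to 3′ on the strand of the gene. Capitals mark matches on either strand to ACGTG or GCGTG, the core of the HIF motif. The windows lie at chr17:28576896-28577145 on the minus strand for ALDOC, chr1:8878687-8878936 on the minus strand for ENO1 and chr12:6914330-6914579 on the plus strand for ENO2.

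ALDOC: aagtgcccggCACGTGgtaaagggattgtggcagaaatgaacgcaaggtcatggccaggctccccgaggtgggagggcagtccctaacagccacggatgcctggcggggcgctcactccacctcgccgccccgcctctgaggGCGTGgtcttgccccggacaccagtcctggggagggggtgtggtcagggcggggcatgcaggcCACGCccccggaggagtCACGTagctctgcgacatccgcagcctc
ENO1: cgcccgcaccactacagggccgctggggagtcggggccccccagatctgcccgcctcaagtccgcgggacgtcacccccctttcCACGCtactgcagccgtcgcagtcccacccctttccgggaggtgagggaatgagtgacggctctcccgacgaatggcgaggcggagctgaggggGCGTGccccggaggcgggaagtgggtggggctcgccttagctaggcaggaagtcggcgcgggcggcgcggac
ENO2: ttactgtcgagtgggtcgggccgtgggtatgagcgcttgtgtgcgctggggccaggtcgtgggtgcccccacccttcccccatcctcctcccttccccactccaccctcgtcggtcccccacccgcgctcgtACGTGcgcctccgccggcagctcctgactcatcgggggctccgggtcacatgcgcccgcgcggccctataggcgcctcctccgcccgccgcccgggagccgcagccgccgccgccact

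ALDOC held 5 matches, ENO1 2 and ENO2 1, where overlapping matches on the 2 strands count separately. A match in at least 1 window was found for 26 of the 35 listed genes in the promoter table (74.3%), beside 65.9% of the 8880 tested genes in it. By window it was 34 of 66 (51.5%), beside 43.2% of all 35116 windows, which include those of genes not tested. The 2 backgrounds are unlike, as the share by gene was only 47.4% over all 27305 symbols. No share was computed for the windows of tested genes alone. A gene with more windows has more chances of a match, and the number of windows per gene was not matched. A match is a run of letters, and binding was not measured.

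**Figure D1:**
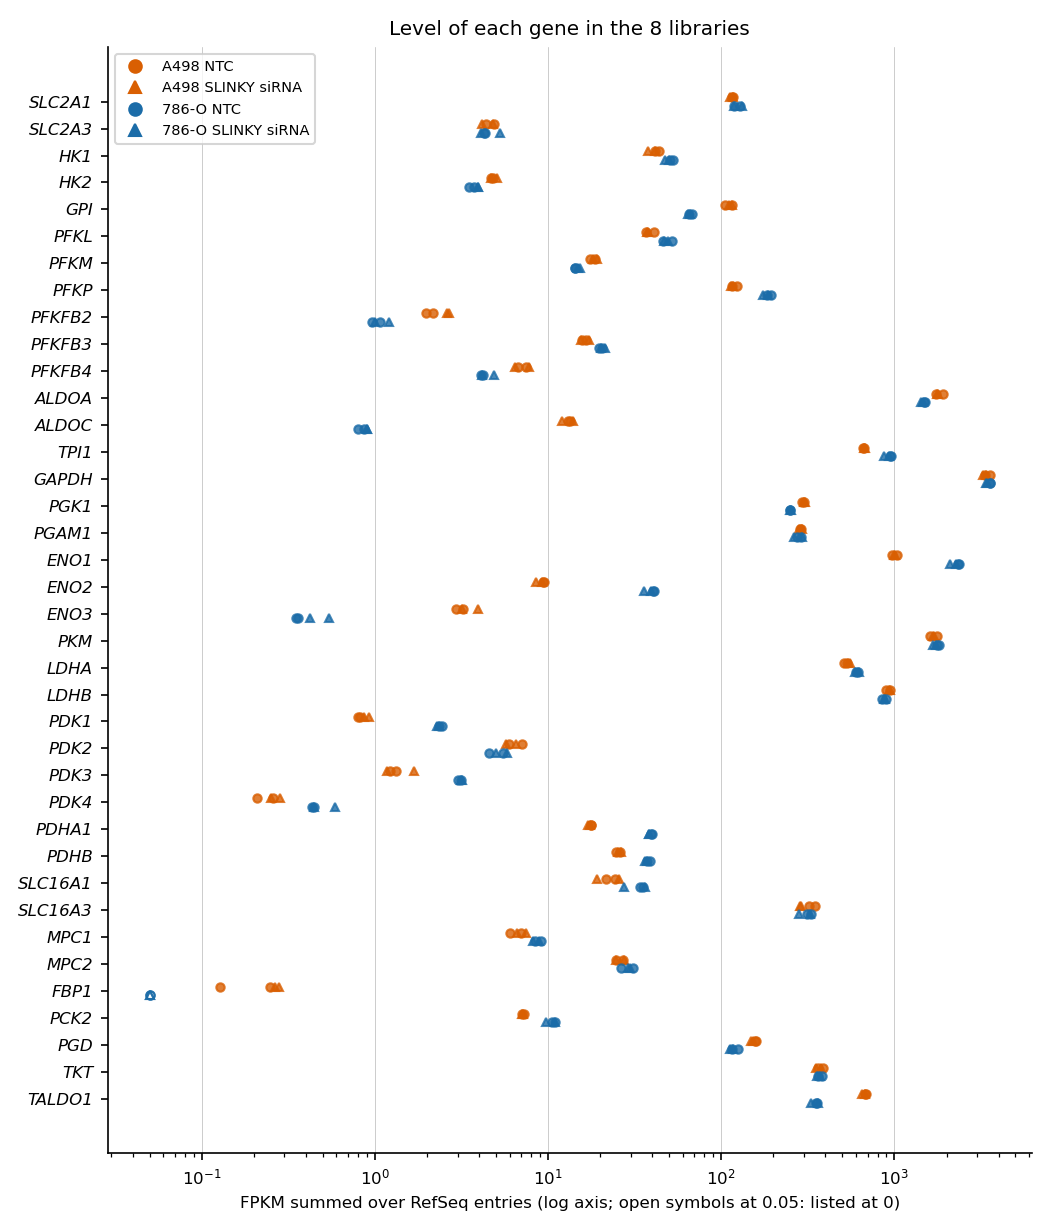
FPKM of each gene (log axis) in the 8 libraries, in the order of the pathway; colours give the cell line and marker shapes NTC or siRNA. GAPDH is at 3238 FPKM or more in every library, the lines lie far apart for ALDOC and ENO3, and FBP1 is listed at 0 in 786-O.

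The highest level was that of GAPDH, the dehydrogenase in the middle of glycolysis, at 3238 to 3565 FPKM in A498 and 3376 to 3555 in 786-O. ALDOA, PKM and ENO1 came next in A498 and ENO1, PKM and ALDOA in 786-O, in order of their means. FBP1 was the lowest in both lines, followed by PDK4 in A498, whose range overlapped that of FBP1, and by ENO3 and PDK4 in 786-O, which overlapped each other. FBP1 and PDK4 were below a mean of 1 FPKM over the libraries and were not tested, which left 36 of the 38 genes. ALDOC, ENO3 and PDK1 were below 1 FPKM throughout 1 line and passed this filter through the other.

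The first comparison was of the cell lines, by limma on log2(FPKM + 0.1) over 11367 genes with knockdown as a covariate, at a Benjamini-Hochberg adjusted p under 0.05. Of the 36 genes, 29 (80.6%) passed, beside 80.5% of all genes tested, so the share was that of the background. Of these, 16 were higher in 786-O (44.4%, background 41.4%) and 13 in A498 (36.1%, background 39.1%). A difference of at least 2-fold was found for 8 genes (22.2%, background 22.9%), namely PFKFB2, ALDOC, ENO1, ENO2, ENO3, PDK1, PDK3 and PDHA1. Of these, ALDOC, ENO3 and PDK1 passed the filter only through 1 line, which favors a difference, and their p-values carry that limit. How many background genes did so was not counted. The 4 libraries of each line did not overlap for 28 genes (77.8%, background 75.5%). The median log2 difference, 786-O minus A498, was 0.05 over the 36 genes and 0.02 over all genes, and the median absolute difference 0.35 and 0.51. All log2 differences below are on the log2(FPKM + 0.1) scale, and folds are taken from them.

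**Figure D2:**
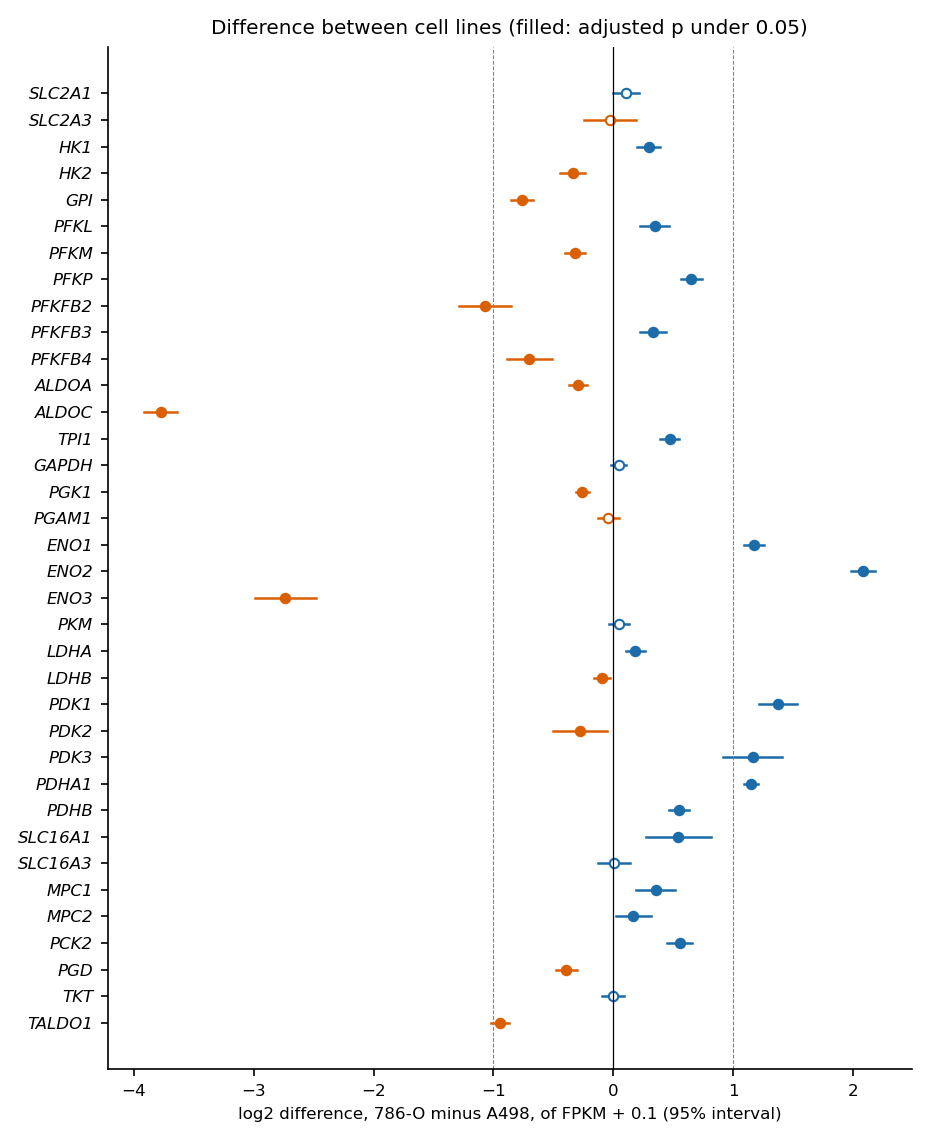
Difference between the lines, log2(FPKM + 0.1) in 786-O minus A498, for the 36 tested genes with 95% intervals. ALDOC (-3.78) and ENO3 (-2.74) lie farthest toward A498 and ENO2 (2.09) farthest toward 786-O.

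Of the listed glucose transporters, SLC2A1 and SLC2A3, neither passed the test. SLC2A1, or GLUT1, was at 112 to 118 FPKM in A498 and 118 to 132 in 786-O (log2 difference 0.10, 95% interval -0.00435 to 0.214, adjusted p = 0.07), and the lines just failed to overlap. It passed in 4 alternative fits, among them those without 786-O NTC 1 (adjusted p = 0.0448) or 786-O siRNA #1 (0.035) and after median-ratio scaling (0.0275). SLC2A3, or GLUT3, was at 4.18 to 4.9 FPKM in A498 and 4.09 to 5.3 in 786-O, with overlap (log2 difference -0.03, 95% interval -0.25 to 0.19, adjusted p = 0.797). Its close copy SLC2A14 was listed at 0.466 to 0.963 FPKM, and reads common to both cannot be told apart.

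The listed hexokinases, which trap glucose as glucose 6-phosphate, went in opposite directions. HK1, the widely expressed form, was at 37.8 to 43.6 FPKM in A498 and 47.5 to 52.7 in 786-O, 1.23-fold higher in 786-O (log2 difference 0.29, SE 0.0405, adjusted p = 2.52e-04). HK2, the inducible form, was at 4.66 to 5.04 FPKM in A498 and 3.48 to 3.96 in 786-O, 1.26-fold higher in A498 (log2 difference -0.34, SE 0.0449, adjusted p = 2.07e-04). The lines did not overlap for either gene.

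GPI, which turns glucose 6-phosphate into fructose 6-phosphate, was at 115, 105, 115 and 112 FPKM in A498 and 65.0, 68.1, 66.4 and 64.4 in 786-O, each in the order NTC 1, NTC 2, siRNA #1 and siRNA #2, which is kept below. Every A498 library was above every 786-O library (log2 difference -0.76, SE 0.0402, adjusted p = 9.46e-07).

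Phosphofructokinase commits sugar to glycolysis and is built from liver (PFKL), muscle (PFKM) and platelet (PFKP) subunits. PFKP, the most abundant in both lines, was at 124, 115, 115 and 116 FPKM in A498 and 185, 193, 174 and 187 in 786-O. It was higher in each 786-O library (log2 difference 0.65, SE 0.0378, adjusted p = 1.62e-06). PFKL was at 36.6 to 41.0 FPKM in A498 and 46.1 to 52.1 in 786-O, 1.27-fold higher in 786-O. PFKM went the other way, at 17.4 to 19.2 FPKM in A498 and 14.2 to 15.2 in 786-O (log2 difference -0.32, SE 0.0353, adjusted p = 6.70e-05). The PFKM status was FAIL in A498 with siRNA #2, where its 18.3 FPKM lay within the other A498 values. The sum of the subunits was 1.42 times as high in 786-O.

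The PFKFB enzymes make and break fructose 2,6-bisphosphate, an activator of phosphofructokinase. PFKFB3, the form with the strongest kinase activity, was at 15.6 to 17.3 FPKM in A498 and 19.8 to 21.4 in 786-O, 1.26-fold higher in 786-O. PFKFB4 was at 6.43 to 7.73 FPKM in A498 and 4.08 to 4.86 in 786-O, 1.62-fold higher in A498. PFKFB2, the heart form, was at 1.96, 2.16, 2.6 and 2.69 FPKM in A498 and 1.07, 0.967, 1.21 and 0.995 in 786-O. All A498 libraries were above those of 786-O (log2 difference -1.07, SE 0.0918, adjusted p = 1.55e-05), while the family sum was 1.01 times as high in 786-O as in A498.

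Aldolase, which cleaves the sugar, held the largest difference of the 36 genes. ALDOC, the brain form (chromosome 17, 26900133 to 26903951 in hg19), was at 13.1, 13.4, 13.9 and 12.1 FPKM in A498 and 0.8, 0.861, 0.899 and 0.899 in 786-O. The A498 libraries stood far above those of 786-O, by 13.7-fold (log2 difference -3.78, SE 0.0588, adjusted p = 2.45e-09). A noncoding entry that overlaps the ALDOC locus was at 20.7 to 25.5 FPKM in A498 and 1.02 to 2.74 in 786-O. The TruSeq RNA kit named in the study's methods does not mark strand, so reads of overlapping genes on opposite strands cannot be told apart. ALDOA, the general form (chromosome 16, 30075600 to 30081741 in hg19), was at 1915, 1738, 1789 and 1761 FPKM in A498 and 1486, 1509.7, 1461 and 1418 in 786-O. It was higher in each A498 library (log2 difference -0.29, SE 0.0333, adjusted p = 8.18e-05), but its highest entry alone gave 0.04 (adjusted p = 0.449), as described with the entries below.

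TPI1, which interconverts the triose phosphates, was at 655 to 675 FPKM in A498 and 866 to 950.2 in 786-O, 1.38-fold higher in 786-O, and its main entry had the status LOWDATA in all 8 libraries. GAPDH did not pass (log2 difference 0.04, 95% interval -0.02 to 0.11, adjusted p = 0.167), except after median-ratio scaling of the libraries (0.08, adjusted p = 0.0481). PGK1, the first enzyme of the pathway to yield ATP, was at 292 to 303 FPKM in A498 and 248 to 252 in 786-O, 1.2-fold higher in A498. PGAM1, the phosphoglycerate mutase, was at 283 to 292 FPKM in A498 and 263 to 292 in 786-O, with overlap (log2 difference -0.04, 95% interval -0.13 to 0.05, adjusted p = 0.356).

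Enolase forms phosphoenolpyruvate, and its 3 genes all differed between the lines. ENO1, the general form (chromosome 1, 8921059 to 8939151 in hg19), was at 1036, 975, 1004 and 994 FPKM in A498 and 2318, 2359, 2263 and 2101 in 786-O. Each 786-O library was above each A498 library (log2 difference 1.17, SE 0.0362, adjusted p = 5.62e-08). ENO2, the neuronal form (chromosome 12, 7023614 to 7032859 in hg19), was at 9.34, 9.45, 8.47 and 9.28 FPKM in A498 and 40.9, 40.3, 36.0 and 39.4 in 786-O. It had the largest difference toward 786-O of the 36 genes, 4.25-fold (log2 difference 2.09, SE 0.043, adjusted p = 7.86e-09). ENO3, the muscle form (chromosome 17, 4854384 to 4860426 in hg19), ran the other way, at 3.24, 2.96, 3.19 and 3.96 FPKM in A498 and 0.358, 0.348, 0.545 and 0.424 in 786-O. All 786-O values were below 1 FPKM and below every A498 value (log2 difference -2.74, SE 0.11, adjusted p = 2.14e-07). They rest on few reads, whose number the deposited intervals do not give, as these also hold the division between the entries of ENO3. Enolase summed to 2.27 times as much in 786-O as in A498, and ENO1 was 98.7% to 98.9% of the sum in A498 and 98.1% to 98.4% in 786-O.

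PKM was at 1755, 1604, 1703 and 1672 FPKM in A498 and 1765, 1803, 1736 and 1672 in 786-O, and the lines overlapped (log2 difference 0.05, 95% interval -0.03 to 0.13, adjusted p = 0.214). Of its 7 RefSeq entries, NM_002654 was at 856, 838, 823 and 788 FPKM in A498 and 812, 852, 789 and 807 in 786-O, with overlap. NM_001206797 was at 786.3, 665.6, 748.6 and 744.6 FPKM in A498 and 832.1, 866.4, 849.2 and 794.9 in 786-O, each 786-O library above each of A498. Together with NM_001206799 at 66.6 to 136 FPKM over the 8 libraries, these held nearly all of PKM. The other 4 were low, with highest values of 2.32 FPKM for NM_182470, 2.02 for NM_001206798, 1.74 for NM_001206796 and 1.14e-05 for NM_182471. Which of the exons shown above each entry contains was not established here, so no share of the M1 or M2 form is given.

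Lactate dehydrogenase interconverts pyruvate and lactate. LDHA, whose subunit favors lactate, was at 510.3, 536, 541 and 555 FPKM in A498 and 620.1, 602, 589 and 622 in 786-O. It was higher in each 786-O library (log2 difference 0.18, SE 0.0337, adjusted p = 0.00131). Its status was FAIL in A498 with siRNA #1 and in the first 786-O NTC library. The sums there lay within the range of the other libraries of the same line. The noncoding entry NR_028500 held 55.0% to 59.1% of the LDHA sum in A498 and 57.5% to 61.1% in 786-O. LDHB, the heart subunit, was at 897 to 943 FPKM in A498 and 844 to 889 in 786-O, 1.07-fold higher in A498 (log2 difference -0.10, SE 0.0281, adjusted p = 0.0142). It did not pass after median-ratio scaling (adjusted p = 0.0767) or with the NTC libraries only (0.283).

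Lactate leaves the cell through monocarboxylate transporters. SLC16A1, or MCT1, was at 21.7, 24.3, 19.2 and 25.7 FPKM in A498 and 35.4, 33.9, 27.4 and 36.1 in 786-O. The lines did not overlap (log2 difference 0.54, SE 0.116, adjusted p = 0.00303), and siRNA #1 gave the lowest value in both. SLC16A3, or MCT4, the exporter of glycolytic cells, was the more abundant at 286 to 350.0 FPKM in A498 and 281 to 329 in 786-O, with overlap (log2 difference 0.00, 95% interval -0.13 to 0.14, adjusted p = 0.942). One of its entries, NM_004207, held 51.9% of the sum in a single A498 library and as little as 8.96% in another.

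At the mitochondrion, MPC1 and MPC2 form the pyruvate carrier. MPC1 was at 6.04 to 7.47 FPKM in A498 and 8.22 to 9.1 in 786-O, 1.28-fold higher in 786-O (log2 difference 0.35, SE 0.0696, adjusted p = 0.00191). MPC2 was at 24.6 to 27.5 FPKM in A498 and 26.5 to 30.9 in 786-O and passed although the lines overlapped (log2 difference 0.17, SE 0.0624, adjusted p = 0.04). It no longer passed without any 1 of 5 libraries, at an adjusted p of 0.106 and 0.111 without A498 NTC 1 and A498 siRNA #2, and 0.11, 0.0953 and 0.0735 without 786-O NTC 2, siRNA #1 and siRNA #2. The noncoding entry NR_026550 held 62.9% to 94.0% of the MPC2 sum, and with NM entries only the log2 difference was 0.06 (adjusted p = 0.94). The call was also lost with the highest entry (0.356), with the NTC libraries only (0.264), with no filter (0.0611), in the 4-group fit (0.0593) and with no variance trend (0.0501). PDHA1, the alpha subunit of pyruvate dehydrogenase, was at 17.6, 17.8, 17.1 and 17.4 FPKM in A498 and 39.6, 39.4, 38.4 and 38.3 in 786-O. The spread within a line was small beside the gap between them (log2 difference 1.15, SE 0.0263, adjusted p = 1.25e-08). PDHB, the beta subunit, was at 24.8 to 26.3 FPKM in A498 and 36.5 to 38.9 in 786-O, 1.47-fold higher in 786-O.

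The PDK kinases switch this complex off. PDK1, the HIF-induced form, was at 0.82, 0.797, 0.86 and 0.921 FPKM in A498 and 2.44, 2.35, 2.36 and 2.3 in 786-O. The lines did not overlap (log2 difference 1.38, SE 0.0684, adjusted p = 6.85e-07). PDK3 was at 1.33, 1.22, 1.69 and 1.18 FPKM in A498 and 3.01, 3.16, 3.16 and 3.18 in 786-O, again without overlap (log2 difference 1.16, SE 0.105, adjusted p = 2.08e-05). Noncoding entries that overlap these loci were at 0.526 to 1.17 FPKM in A498 and 0.439 to 0.934 in 786-O for PDK1 and at 0.112 to 0.164 FPKM in A498 and 0.764 to 1.1 in 786-O for PDK3. PDK2, the most abundant, was at 5.98, 7.08, 6.49 and 5.73 FPKM in A498 and 4.53, 5.49, 5.77 and 4.99 in 786-O. Its lines overlapped (log2 difference -0.28, SE 0.0957, adjusted p = 0.0276), and it no longer passed without A498 NTC 2 (adjusted p = 0.078), A498 siRNA #1 (0.076), 786-O NTC 1 (0.0718) or 786-O siRNA #2 (0.0758). Nor did PDK2 pass with the highest entry (0.237), with the NTC libraries only (0.0863) or with no filter (0.0523). PDK4, the fasting-induced form, was at 0.21, 0.257, 0.251 and 0.284 FPKM in A498 and 0.433, 0.446, 0.445 and 0.589 in 786-O and was not tested. Its values in A498 were all below those in 786-O.

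Of the gluconeogenic genes, FBP1, the fructose bisphosphatase, was at 0.249, 0.127, 0.264 and 0.278 FPKM in A498 and was listed at 0 in all 4 libraries of 786-O. PCK2, the mitochondrial phosphoenolpyruvate carboxykinase, was at 7.04 to 7.24 FPKM in A498 and 9.76 to 11.0 in 786-O, 1.47-fold higher in 786-O.

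Of the pentose phosphate genes, TALDO1, the transaldolase of the nonoxidative branch, was at 690.1, 680.4, 673 and 648 FPKM in A498 and 352, 356, 360.2 and 329.9 in 786-O. All A498 libraries were above those of 786-O (log2 difference -0.95, SE 0.0335, adjusted p = 1.12e-07). PGD, of the oxidative branch, was at 148 to 159 FPKM in A498 and 112 to 126 in 786-O, 1.31-fold higher in A498. TKT, the transketolase, was at 351 to 388 FPKM in A498 and 359 to 380.2 in 786-O, with overlap (log2 difference 0.00, 95% interval -0.09 to 0.09, adjusted p = 1).

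Isozyme choice was described, with no test, as the share of each isozyme in the summed FPKM of its family, over 10 families. The leading listed isozyme was the same in both lines in all 10, namely SLC2A1, HK1, PFKP, PFKFB3, ALDOA, ENO1, LDHB, PDK2, SLC16A3 and MPC2. In 8 families the shares did not overlap between the lines, the exceptions being the glucose transporters and the pyruvate carriers. No background for shares was computed, but the levels of 75.5% of all genes did not overlap between the lines, and the count of families is not read as particular to them.

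**Figure D3:**
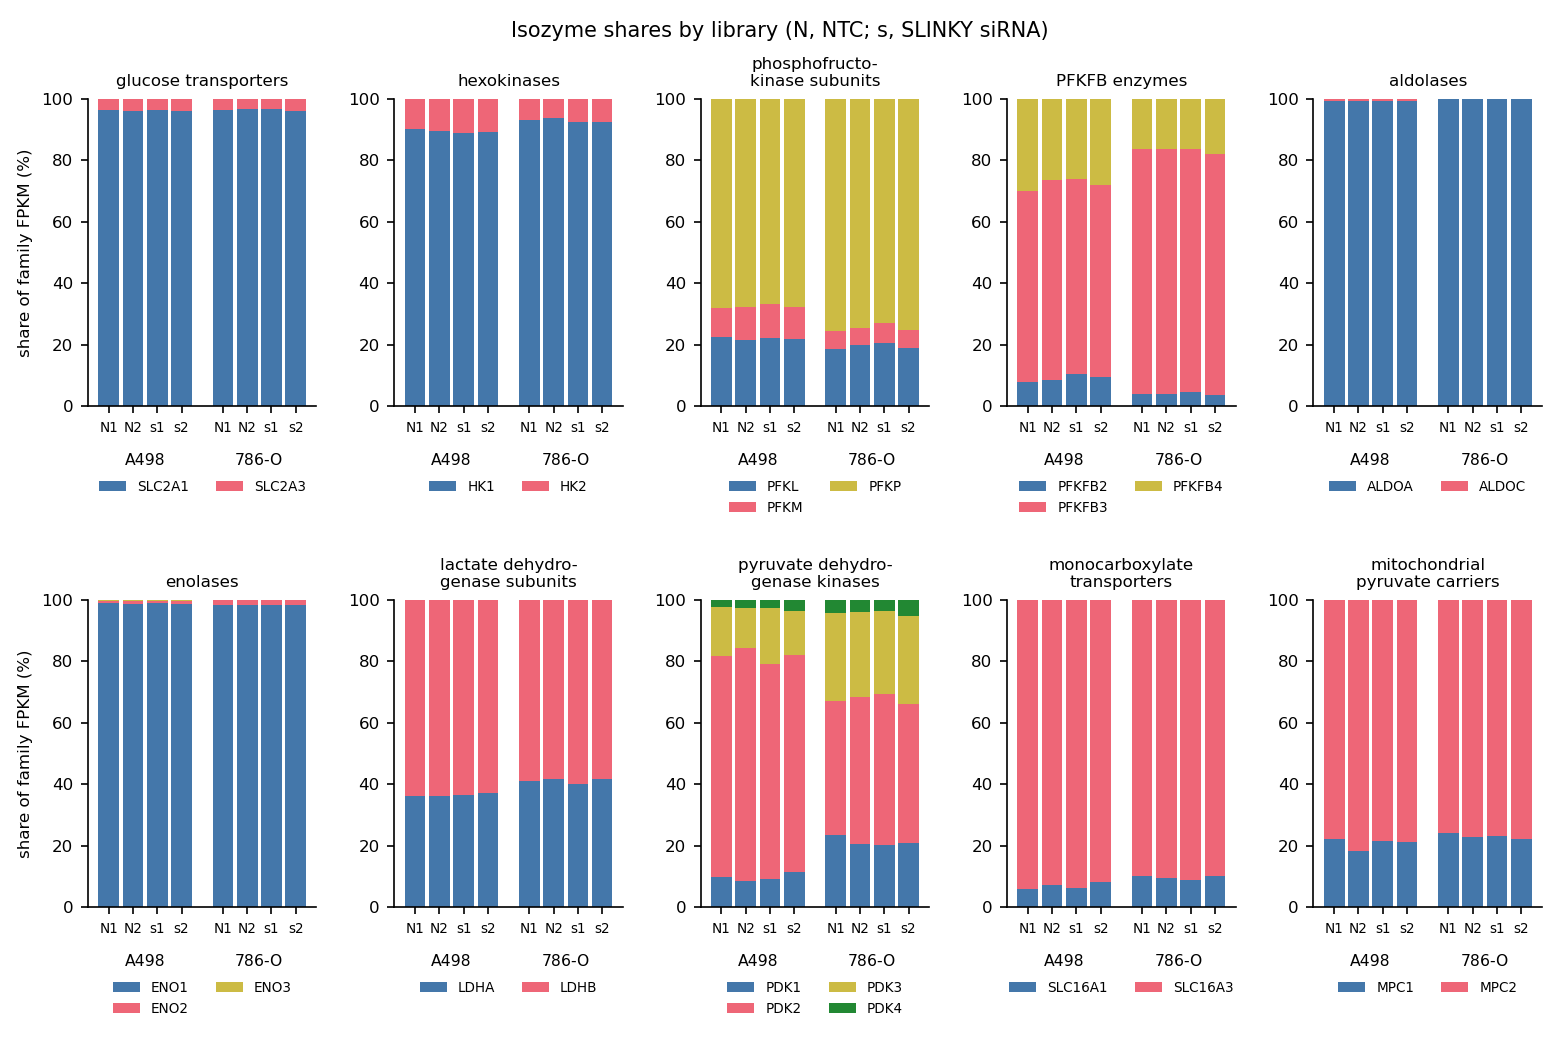
Share of each isozyme in the summed FPKM of the listed genes of its family (percent) in the 8 libraries, A498 and 786-O side by side. PDK2 is 69.9% to 75.7% of the PDK sum in A498 and 43.5% to 49.2% in 786-O, and the leading listed isozyme of each family is the same in both lines.

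The PDK kinases had the widest difference in shares, in percentage points. PDK2 was 72.0% ± 2.59 in A498 and 46.5% ± 2.6 in 786-O (SD, n = 4 libraries a line, NTC and siRNA together, here and below). PDK1 was 9.74% ± 1.2 in A498 and 21.2% ± 1.53 in 786-O, PDK3 was 15.4% ± 2.18 in A498 and 28.0% ± 0.933 in 786-O, and PDK4 was 2.87% ± 0.438 in A498 and 4.3% ± 0.708 in 786-O. The other 3 kinases thus all had a larger share in 786-O. Of the PFKFB enzymes, PFKFB3 was 63.3% ± 1.29 in A498 and 79.2% ± 0.546 in 786-O, PFKFB4 was 27.6% ± 1.71 in A498 and 16.7% ± 0.771 in 786-O, and PFKFB2 was 9.14% ± 1.22 in A498 and 4.11% ± 0.468 in 786-O. Of phosphofructokinase, PFKP was 67.5% ± 0.504 in A498 and 74.5% ± 1.04 in 786-O and PFKM was 10.6% ± 0.723 in A498 and 5.93% ± 0.337 in 786-O.

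In the families with 1 dominant or 2 abundant isozymes the shares lay closer together in percentage points, a scale on which small shares can differ only little. LDHA was 36.5% ± 0.459 in A498 and 41.2% ± 0.777 in 786-O, HK2 was 10.5% ± 0.616 in A498 and 7.01% ± 0.633 in 786-O, and SLC16A1 was 6.84% ± 1.02 in A498 and 9.59% ± 0.593 in 786-O. ENO2 was 0.901% ± 0.052 in A498 and 1.7% ± 0.113 in 786-O, ENO3 was 0.329% ± 0.0434 in A498 and 0.0183% ± 0.0043 in 786-O, and ALDOC was 0.725% ± 0.0514 in A498 and 0.0589% ± 0.00432 in 786-O. The large fold differences of ENO2, ENO3 and ALDOC were therefore in isozymes that made up a small part of their family.

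**Figure D4:**
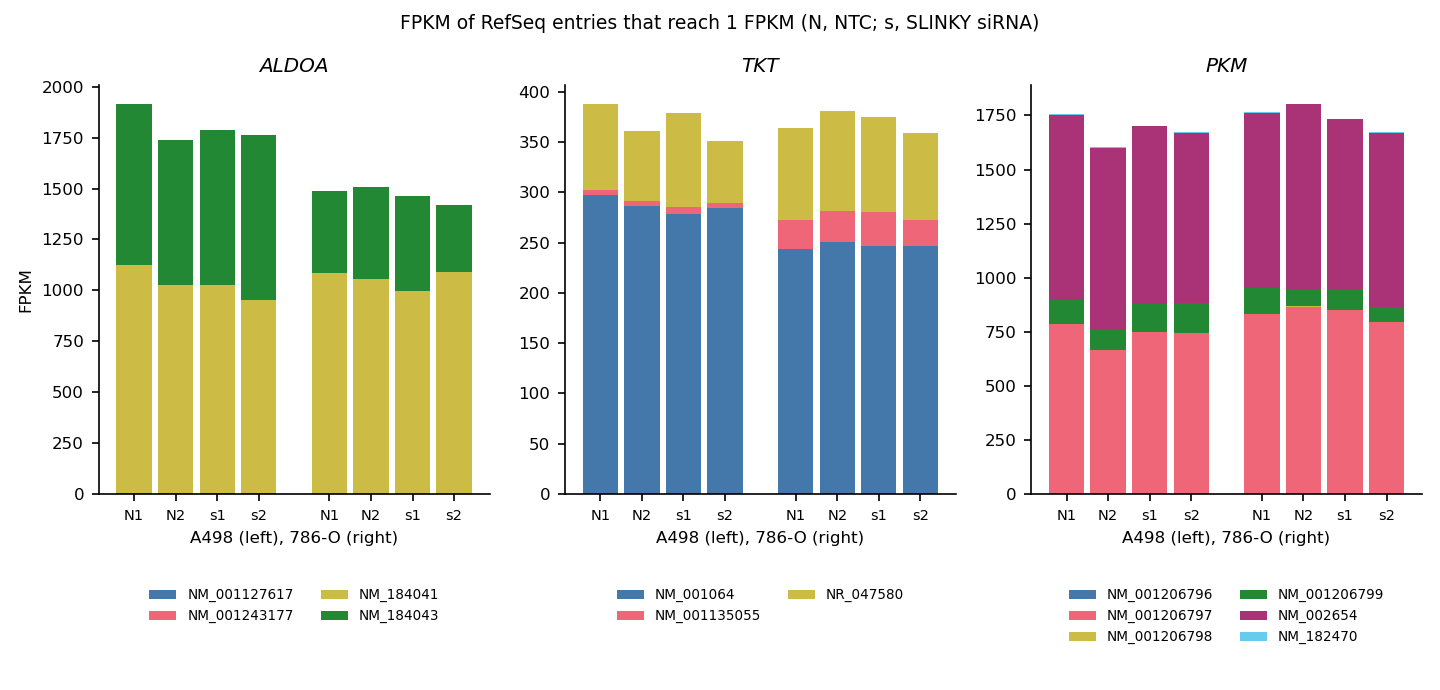
FPKM of RefSeq entries of ALDOA, TKT and PKM in the 8 libraries. The ALDOA entry NM_184043 is higher in A498 and the TKT entry NM_001135055 higher in 786-O, and of the PKM entries NM_001206797 is higher in each 786-O library than in any of A498, while NM_002654 overlaps.

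Entries of ALDOA and TKT differed in ways that the sums did not show. ALDOA NM_184041 was at 946 to 1117 FPKM in A498 and 994 to 1086 in 786-O, an overlapping range. NM_184043, which begins upstream of it at position 30075600 rather than 30076994 of chromosome 16 (hg19), was at 712 to 808 FPKM in A498 and 326 to 463 in 786-O. It was 41.0% to 45.9% of the sum in A498 and 23.0% to 31.7% in 786-O. TKT NM_001135055 was at 4.05 to 6.89 FPKM in A498 and 25.8 to 33.7 in 786-O, while NM_001064 was at 279 to 297 FPKM in A498 and 244 to 250.2 in 786-O. With the highest entry alone TKT passed the test toward A498 (log2 difference -0.22, adjusted p = 2.34e-04), as it did with NM entries only (-0.08, adjusted p = 0.0377). The division of 36-base reads between entries is an estimate by Cufflinks, and single entries were not tested otherwise.

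The second comparison was of SLINKY knockdown with NTC. None of the 36 genes passed limma's test over both lines (background 0.0088%), within A498 (background 0.176%), within 786-O (background 0.141%) or for the interaction of knockdown and line (background 0.141%). At an unadjusted limma p under 0.05 there were 4 over both lines (11.1%, background 11.5%), 2 within A498 (5.56%, background 4.3%), 0 within 786-O (background 4.21%) and 0 for the interaction (background 1.93%). No gene was beyond 0.322 on the log2(FPKM + 0.1) scale from the NTC mean in 1 direction with both siRNAs, in A498 (background 2.38%) or in 786-O (background 2.23%). PFKFB2 in A498 was an exception without the added 0.1, as given below. For 32 of the 36 genes the 95% interval of the difference over both lines lay within that distance of 0, and the median difference was -0.01, beside 0.01 over all genes. The fit over both lines uses the same libraries as the fits within each line.

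**Figure D5:**
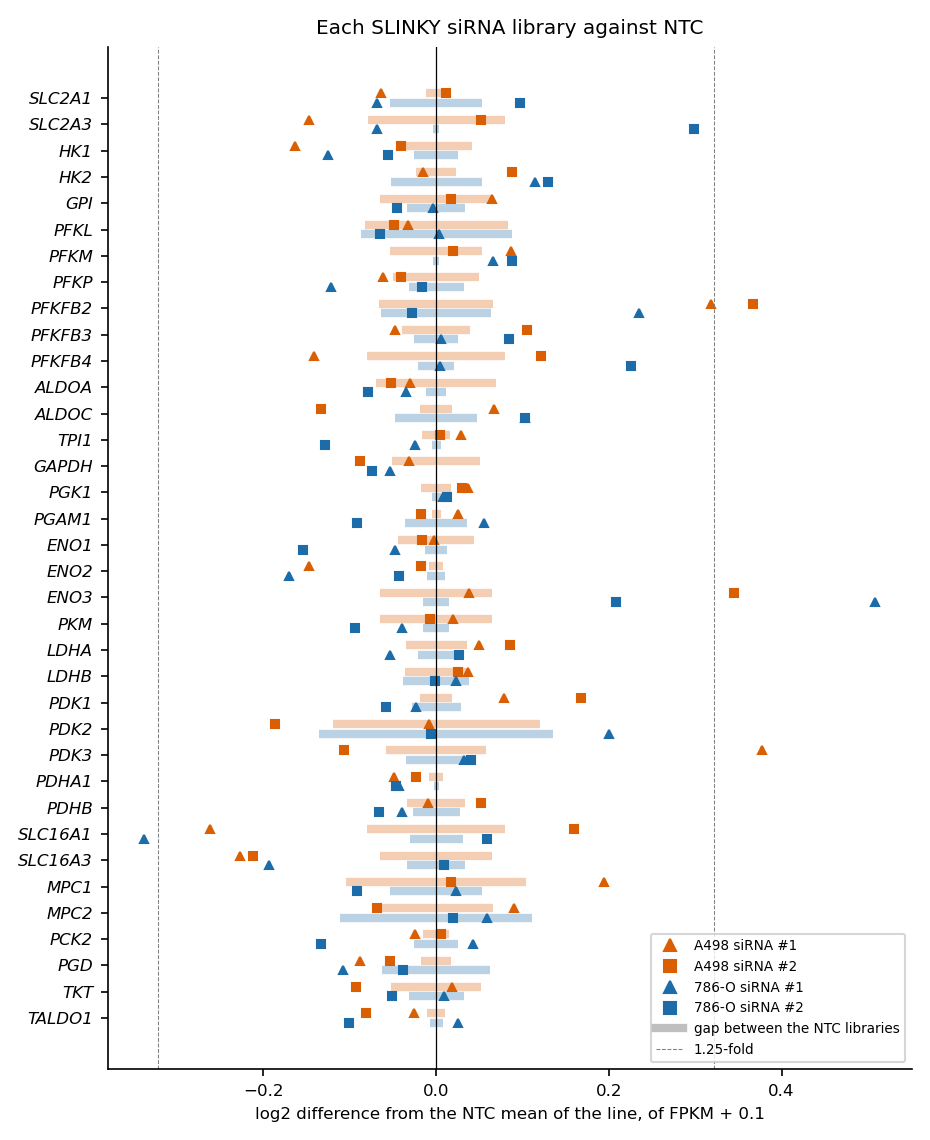
Each siRNA library minus the NTC mean of its line on the log2(FPKM + 0.1) scale for the 36 tested genes. Dashed lines mark 0.322 in either direction, and no gene has both siRNAs of a line beyond the same one.

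The 6 genes with the smallest p over both lines were SLC16A3, ENO3, PFKFB2, HK1, GAPDH and ENO2, none of which passed. SLC16A3 was at 350.0 and 320.0 FPKM in the A498 NTC libraries and 286 and 289 with siRNA #1 and #2, and at 314 and 329 in the 786-O NTC libraries and 281 and 324 with siRNA. Both siRNA values were below both NTC values in A498, and they overlapped in 786-O (log2 difference -0.15, SE 0.0564, limma adjusted p = 0.416, 0.327 to 0.912 over the alternatives).

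ENO3 was at 3.24 and 2.96 FPKM in the A498 NTC libraries and 3.19 and 3.96 with siRNA #1 and #2, and at 0.358 and 0.348 in the 786-O NTC libraries and 0.545 and 0.424 with siRNA. Both siRNA values were above both NTC values in 786-O, where all were low, and they overlapped in A498 (log2 difference 0.28, SE 0.11, limma adjusted p = 0.423, 0.372 to 0.828 over the alternatives). PFKFB2 was at 1.96 and 2.16 FPKM in the A498 NTC libraries and 2.6 and 2.69 with siRNA #1 and #2, and at 1.07 and 0.967 in the 786-O NTC libraries and 1.21 and 0.995 with siRNA. Both siRNA values were above both NTC values in A498, and they overlapped in 786-O (log2 difference 0.22, SE 0.0918, limma adjusted p = 0.431, 0.352 to 0.744 over the alternatives). In A498 the siRNA libraries of PFKFB2 lay 0.319 and 0.367 above the NTC mean on the log2 scale, the first just under the limit of 0.322.

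HK1 was at 43.6 and 41.2 FPKM in the A498 NTC libraries and 37.8 and 41.2 with siRNA #1 and #2, and at 50.9 and 52.7 in the 786-O NTC libraries and 47.5 and 49.8 with siRNA. The siRNA values were below both NTC values in 786-O and overlapped them in A498 (log2 difference -0.10, SE 0.0405, limma adjusted p = 0.436, 0.351 to 0.744 over the alternatives). GAPDH was at 3565 and 3321 FPKM in the A498 NTC libraries and 3368 and 3238 with siRNA #1 and #2, and at 3555 and 3553 in the 786-O NTC libraries and 3426 and 3376 with siRNA, with the same arrangement (log2 difference -0.06, SE 0.0274, limma adjusted p = 0.446, 0.328 to 0.792 over the alternatives). ENO2 was at 9.34 and 9.45 FPKM in the A498 NTC libraries and 8.47 and 9.28 with siRNA #1 and #2, and at 40.9 and 40.3 in the 786-O NTC libraries and 36.0 and 39.4 with siRNA. Its siRNA values were below both NTC values in both lines (log2 difference -0.09, SE 0.043, limma adjusted p = 0.455, 0.383 to 0.731 over the alternatives).

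Over the 36 genes, both siRNA values were above both NTC values for 4 genes in A498 (11.1%, background 20.3%) and 5 in 786-O (13.9%, background 18.9%). They were below for 5 in A498 (13.9%, background 16.3%) and 9 in 786-O (25%, background 13.8%). With 2 libraries against 2 such separation was common among all genes and is given as a description.

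Other genes of these pathways were taken from a list of 56, of which 31 passed the filter. Between the lines 25 of the 31 passed limma's test (80.6%), 11 higher in 786-O and 14 in A498, a share close to the background given above. RPIA, which makes ribose 5-phosphate, was at 11.9 to 12.5 FPKM in A498 and 29.0 to 32.0 in 786-O, higher in 786-O (log2 difference 1.34, SE 0.04, adjusted p = 4.70e-08). PGM2, a sugar phosphate mutase, was at 6.42 to 8.47 FPKM in A498 and 21.0 to 24.7 in 786-O, also higher in 786-O (log2 difference 1.63, SE 0.0642, adjusted p = 1.96e-07). G6PC3, a glucose 6-phosphatase, was higher in A498 (log2 difference -0.95, SE 0.0418, adjusted p = 3.56e-07), and ME2, the mitochondrial malic enzyme, in 786-O (log2 difference 0.90, SE 0.0452, adjusted p = 7.27e-07). PDHA2, a testis copy of PDHA1, was higher in 786-O (log2 difference 1.09, SE 0.0792, adjusted p = 5.80e-06), as PDHA1 was. Reads common to both cannot be told apart, so this is not read as a difference of PDHA2 itself. None of the 31 passed for the knockdown over both lines, and 4 (12.9%) had an unadjusted limma p under 0.05, beside 11.5% of all genes.

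Reads of near-identical copies cannot be told apart. PGAM4 was listed at 103 to 113 FPKM, or 37.7% to 39.2% of PGAM1, and PDHA2 at 8.93% to 10.8% of PDHA1. The annotation names 112 pseudogenes after 15 of the 38 genes, 65 of them after GAPDH and 13 after PGAM1, and whether they took reads from these genes was not tested.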

How the data were processed

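RNA-seq libraries of A498 and 786-O cells, 2 NTC and 2 SLINKY siRNA libraries a line, were taken as deposited. The authors sequenced TruSeq libraries from total RNA as 36-base reads and deposited FPKM values with 95% bounds per entry. The submitters' processing notes name TopHat2 2.0.0, Cufflinks 2.0.2 and hg19. Counts were not used, and depth was only estimated. Of 43150 RefSeq entries, 96.6% matched a symbol in a RefSeq gene table of GRCh38.p14, used for names, and FPKM was summed per symbol. SLINKY was read from its own entry.

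Genes with a mean of at least 1 FPKM were fitted on log2(FPKM + 0.1) with limma 3.58.1 (R 4.3.3) and a variance trend, additive in line and knockdown, within each line, and with an interaction, with Benjamini-Hochberg adjustment. Fold changes on this scale understate the change of low genes. The siRNAs of a line served as its knockdown replicates. The members and lists were chosen with earlier results of these data known. All 38 members were named, with values per library for the 6 of smallest knockdown p, and of the other pathway genes the 6 called with the largest difference between lines, of which 1 is not reported here. Alternatives were pseudocounts of 0.01 and 1, no filter or 5 FPKM, median-ratio scaling, the highest entry or NM entries only, no genes under 200 bp, no variance trend, a 4-group fit, NTC libraries only, a replicate block, and leaving out each library.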

Additional observations from a re-analysis of the deposited data

Results flagged for a closer look

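In 5 of the 75 sets of 4 libraries examined, 1 library stood apart from the other 3 of its line by Dixon's criterion, the gap to the nearest library divided by the range, where chance gives about 1 in 20. NTC and siRNA libraries were pooled in each line. PFKFB4 was at 4.86 FPKM in 786-O with siRNA #2, against 4.08 to 4.2 in the other 786-O libraries. ENO2 was at 8.47 FPKM in A498 with siRNA #1, against 9.28 to 9.45. LDHB was at 897 FPKM in the first A498 NTC library, against 936 to 943. PDK3 was at 3.01 FPKM in the first 786-O NTC library, against 3.16 to 3.18. PDK4 was at 0.589 FPKM in 786-O with siRNA #2, against 0.433 to 0.446.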

How the results depend on the processing

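No count of members passing a test moved by over 1.5 times under any alternative. Between the lines, 24 to 30 members passed (27 to 29 without 1 library), 14 to 18 higher in 786-O (15 to 17) and 10 to 14 higher in A498 (12 to 13). The families without overlap numbered 7 to 10 (8 to 10), and the knockdown and interaction counts stayed at 0. The direction turned for ALDOA with the highest entry (0.0411, adjusted p = 0.449). TKT, at a difference of 0.00 in the main fit, passed toward A498 with the highest entry (-0.215) and with NM entries only (-0.079). LDHB, PDK2 and MPC2 lost the call in 20 fits together, and SLC2A1 (4 fits), GAPDH (1) and TKT, in the fits just named, gained it. Median-ratio scaling moved the median difference between lines over all genes from 0.02 to 0.06. With the replicate block, 30 members passed between lines, 17 higher in 786-O and 13 in A498, and 0 for the knockdown. It gave SLC2A1 the call (adjusted p = 0.0493). Deviations of same-numbered libraries correlated at -0.01 to 0.03 over all genes. Among genes of at least 200 bp the correlations were 0.17 and 0.02 between NTC and siRNA in A498 and 786-O, 0.16 between the siRNA libraries of the lines and -0.15 between their NTC libraries. As not every pair exceeded 0.1 and the labels name no shared batch, the numbers were not taken to pair the libraries. With the NTC numbers crossed, an alternative chosen after seeing the data, 29 members passed. Over all genes, the number called moved with the setting as follows. For the knockdown within A498 it was 20, against 0 to 21 under the other settings and 48 to 61 without 1 library. Within 786-O it was 16, against 0 to 18 under the other settings and 29 to 41 without 1 library. For the interaction it was 16, against 1 to 27 under the other settings and 28 to 38 without 1 library. Over both lines it was 1, against 0 to 19 under the other settings and 1 to 3 without 1 library, the most in the 4-group fit. Depth limits the lowest genes. By the deposited intervals, about 6 to 17 reads lay behind FBP1 in A498 and 25 to 39 behind PDK4 in A498. For genes of several entries the intervals also hold the division between entries. For PDK3 in A498 they gave 6 to 89, at similar FPKM, and for ENO3 in 786-O 14 to 16, which did not follow FPKM and depth. These values of PDK3 and ENO3 are not read as numbers of reads.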
